A study of Homo sapiens with 16 samples.

Results

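The genes described here are the nuclear-encoded subunits of respiratory complexes II to V, together with cytochrome c, in UM-UC-3 bladder cancer cells. The 39 members were taken by gene symbol for their place in the complexes, and the rule uses no measured value. They were, however, chosen with earlier results of these data known. All 39 were found, each in 1 row, among the 58302 genes of the expression table. They comprise 4 subunits of complex II, 9 of complex III, cytochrome c (CYCS), 10 of complex IV and 15 of complex V. UM-UC-3 is an established human bladder cancer cell line. The series holds 16 samples from UM-UC-3 and a second bladder line, T24, transfected for 48 h with 75 nM of a control siRNA or of an siRNA against NAT10, the enzyme that writes N4-acetylcytidine (ac4C) into RNA. The study asked how NAT10 bears on cisplatin resistance and DNA repair. Expression was read from 4 libraries of UM-UC-3, those numbered 2 and 3 in either arm. The acetylated RNA was read from 4 peak lists of acRIP, an immunoprecipitation of RNA with ac4C, made once per arm in a first and again in a replicate round. T24 and the UM-UC-3 expression libraries numbered 1 were not analysed here. The arms are called control and NAT10-si. Each used 1 siRNA sequence and 1 cell line. Whether the 2 libraries of an arm are separate cultures is not in the labels, and the p-values therefore reflect a library-to-library spread that can be purely technical.

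The respiratory chain of the inner mitochondrial membrane passes electrons from reduced substrates to oxygen and pumps protons as it does so. Complex II (succinate dehydrogenase) feeds electrons from succinate into ubiquinone, complex III passes them to cytochrome c, and complex IV (cytochrome c oxidase) passes them to oxygen, while complex V (ATP synthase) lets protons back and makes ATP. Most subunits are encoded in the nucleus and imported, whereas cytochrome b of complex III, the core of complex IV and part of the membrane sector of complex V are encoded in mitochondrial DNA. Nuclear subunit genes often carry promoter sites for nuclear respiratory factor 1 (NRF1), for ETS family proteins such as GABP, and for YY1.

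The reagents that define the arms are shown first, as the labels give them. They are the 21 letters of each siRNA strand, with the orientation of the strand not stated.

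NAT10 siRNA: ccaucucucgcaucuauuutt

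Control siRNA: uucuccgaacgugucacgutt

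Promoter sequence is shown for members that moved in opposite directions, so that the motif content can be read beside the values below. COX6A1 and COX6B1 rose, and CYCS and ATP5F1C fell. The first 2 calls were kept in all 12 alternative settings given below, those of CYCS and ATP5F1C in only 7 each. Each line is the 250 bases before the annotated gene start, 5′ to 3′ along the gene, from RefSeq, build GRCh38.p14. Capitals mark the searched motifs on either strand: GCATGCGC (NRF1) and CCGGAAG (ETS). The COX6A1 stretch is chr12:120437863-120438112, plus strand, that of COX6B1 chr19:35648073-35648322, plus strand, that of CYCS chr7:25125261-25125510, minus strand, and that of ATP5F1C chr10:7787927-7788176, plus strand.

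COX6A1: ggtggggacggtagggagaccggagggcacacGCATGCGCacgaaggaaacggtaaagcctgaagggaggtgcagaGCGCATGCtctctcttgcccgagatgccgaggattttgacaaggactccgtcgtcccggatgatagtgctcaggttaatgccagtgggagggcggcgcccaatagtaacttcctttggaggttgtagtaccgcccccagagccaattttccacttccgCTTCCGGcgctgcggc

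COX6B1: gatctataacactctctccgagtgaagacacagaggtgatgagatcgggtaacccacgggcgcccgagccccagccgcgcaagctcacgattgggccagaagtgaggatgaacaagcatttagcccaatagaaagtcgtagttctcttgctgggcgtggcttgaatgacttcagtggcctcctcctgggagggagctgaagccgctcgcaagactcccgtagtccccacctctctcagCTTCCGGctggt

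CYCS: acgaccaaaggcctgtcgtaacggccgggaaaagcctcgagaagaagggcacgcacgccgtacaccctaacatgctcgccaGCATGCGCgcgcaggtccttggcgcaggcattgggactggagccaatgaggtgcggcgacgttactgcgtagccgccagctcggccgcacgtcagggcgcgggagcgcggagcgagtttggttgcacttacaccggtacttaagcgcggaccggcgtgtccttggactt

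ATP5F1C: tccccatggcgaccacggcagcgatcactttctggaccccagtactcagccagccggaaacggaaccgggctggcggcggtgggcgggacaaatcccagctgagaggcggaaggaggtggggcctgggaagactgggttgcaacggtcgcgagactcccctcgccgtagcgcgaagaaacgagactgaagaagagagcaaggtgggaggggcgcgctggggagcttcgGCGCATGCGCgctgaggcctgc

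In COX6A1, the NRF1 letters begin 218 and 174 bases before the start and the ETS letters 16 bases before it. COX6B1 has the ETS letters 12 bases before the start. CYCS has the NRF1 letters 169 bases before the start. In ATP5F1C, 2 NRF1 matches on opposite strands overlap, at 22 and 20 bases before the start, and form 1 palindrome. Of these 4 genes, the NRF1 letters are in COX6A1, which rose, and in CYCS and ATP5F1C, which fell. Among the 4, the ETS letters are in COX6A1 and COX6B1, which both rose. Outside the 4, the ETS letters are also in SDHD and ATP5F1A, which fell.

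Among the 39 members, 31 had a promoter entry, taken as the window of 250 bases before to 50 bases after each start, and 21 of the 31 held at least 1 of the 3 motifs searched. The NRF1 letters were in 9 members (29.0%), beside 6.64% of the 9383 tested genes with an entry and 3.68% of all 27305 genes with one. The ETS letters were in 15 members (48.4%), beside 23.0% and 12.2%. The YY1 letters AAGATGGC were in 5 members (16.1%), beside 6.75% and 3.52%. Of the 31, 11 rose and 4 fell with NAT10 siRNA by the test given below. The NRF1 letters were in 3 that rose, 3 that fell and 3 that did not pass. The ETS letters were in 7, 2 and 6, and the YY1 letters only in members that did not pass, which were SDHB, UQCRC1, ATP5PB, ATP5PF and ATP5PO. SDHB, the iron-sulphur subunit of complex II, and ATP5PF, a stalk subunit of complex V, held all 3. A match is a run of letters and not a measured binding site.

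NAT10 itself checked the labels. With control siRNA it read 19.0 and 17.6 FPKM (fragments per kilobase of gene model, scaled to the reads of the library), and with NAT10 siRNA 4.04 and 3.84 FPKM, a log2 change of -1.97 ± 0.06 (standard error; limma adjusted p = 1.1e-04). The 4 libraries had between 17373367 and 35925394 recovered reads, control replicate 2 being the deepest. Of 14 urothelial and epithelial markers, 6 reached a mean of 1 FPKM, of which 1 was called higher, 1 lower and 4 did not pass. KRT18, with the highest level, fell from 85.7 and 85.8 FPKM to 53.0 and 53.6 FPKM. KRT7 rose from 1.76 and 1.62 FPKM to 2.98 and 3.72 FPKM (log2 change 0.69, limma adjusted p = 0.00423). KRT19, which did not pass, read 0.0585 and 0.0656 FPKM in control and 3.255 and 0.646 FPKM in NAT10-si (1.32, limma adjusted p = 0.0507). It passed with a pseudocount of 0.1 FPKM (3.29, limma adjusted p = 0.0231), with limma-voom (4.44, adjusted p = 4.0e-10) and with a replicate block (limma adjusted p = 0.0459). In the other settings with all libraries it did not pass or was not tested. UPK3A was listed at 0. Of 10 plasma cell and immune markers, 4 reached 1 FPKM and all 4 were higher in NAT10-si. The summed level of the 10 was 1.72 and 0.96 FPKM in control against 63.2 and 17.6 FPKM in NAT10-si replicates 2 and 3. In NAT10-si it was mostly IGKC, IGHA1 and IGHA2, while PTPRC was at 0 in each library. LCP1, the last of the 4, went from 0.837 and 0.848 FPKM to 3.70 and 4.02 FPKM (log2 change 1.40, limma adjusted p = 3.0e-04). MALAT1, NEAT1 and the mitochondrial ribosomal RNAs MT-RNR1 and MT-RNR2 were higher in NAT10-si by between 1.17 and 1.35 on the log2 scale. The part of these differences in the members' changes was not tested, and the counts of members without each library are given with the results. FPKM is a share of each library, and fewer cells of a kind cannot be told apart from less RNA per cell.

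The 39 members changed little in level, and in both directions. With NAT10 siRNA, 15 rose, 6 fell and 18 did not pass limma's test at an adjusted p of 0.05. All members were well expressed, from 6.08 FPKM on average for ATP5PO, a stalk subunit of complex V, to 474 FPKM for ATP5F1B, the catalytic beta subunit of ATP synthase, and 36 were above 10 FPKM in every library. The median log2 change was 0.09, with a range from -0.25 (SDHD) to 0.42 (COX6A1), beside a median of 0.01 over all 14004 genes tested. The median size of change, without sign, was 0.18 for members and 0.28 for all genes. No member changed by 1 or more on the log2 scale, as 654 of all genes did.

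These counts sit on a large background. Of all genes tested, 55.8% passed, 27.9% higher and 27.9% lower. Among the 7151 genes at or above the level of the lowest member, 30.1% were higher and 35.6% lower. The members' share of 15 of 39 higher is above these and their share of 6 of 39 lower is below them, with no test of either difference. All 10 members that passed with a log2 change of at least 0.3 were higher, and none was lower by as much, whereas 21.7% of all genes passed that size upward and 21.2% downward. The 2 NAT10-si libraries lay above both control libraries for 21 members and below both for 10, and the arms overlapped for 8. Over all genes the arms did not overlap for 80.4%, with 40.4% above and 40.1% below. The count of members that rose went from 15 to 9 without control replicate 2, the deepest library, and was 13, 14 and 12 without each of the other libraries in turn. The count that fell went from 6 to 3 without control replicate 2, to 2 without control replicate 3 and to 3 without NAT10-si replicate 2, and was 5 without NAT10-si replicate 3. With no filter on low values, 8 of the 21 calls were lost (SDHD, UQCRQ, CYCS, COX7B, ATP5F1B, ATP5F1C, ATP5F1D and ATP5ME, limma adjusted p between 0.0666 and 0.147), leaving 11 higher and 2 lower. With quantile normalization SDHD (0.0641) and CYCS (0.0512) were lost. UQCRFS1 and ATP5MC3 were called lower as well, for 8 in all, with limma-voom on recovered reads, with a minimum mean of 5 FPKM, and with libraries rescaled without mitochondrially encoded genes.

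**Figure D1:**
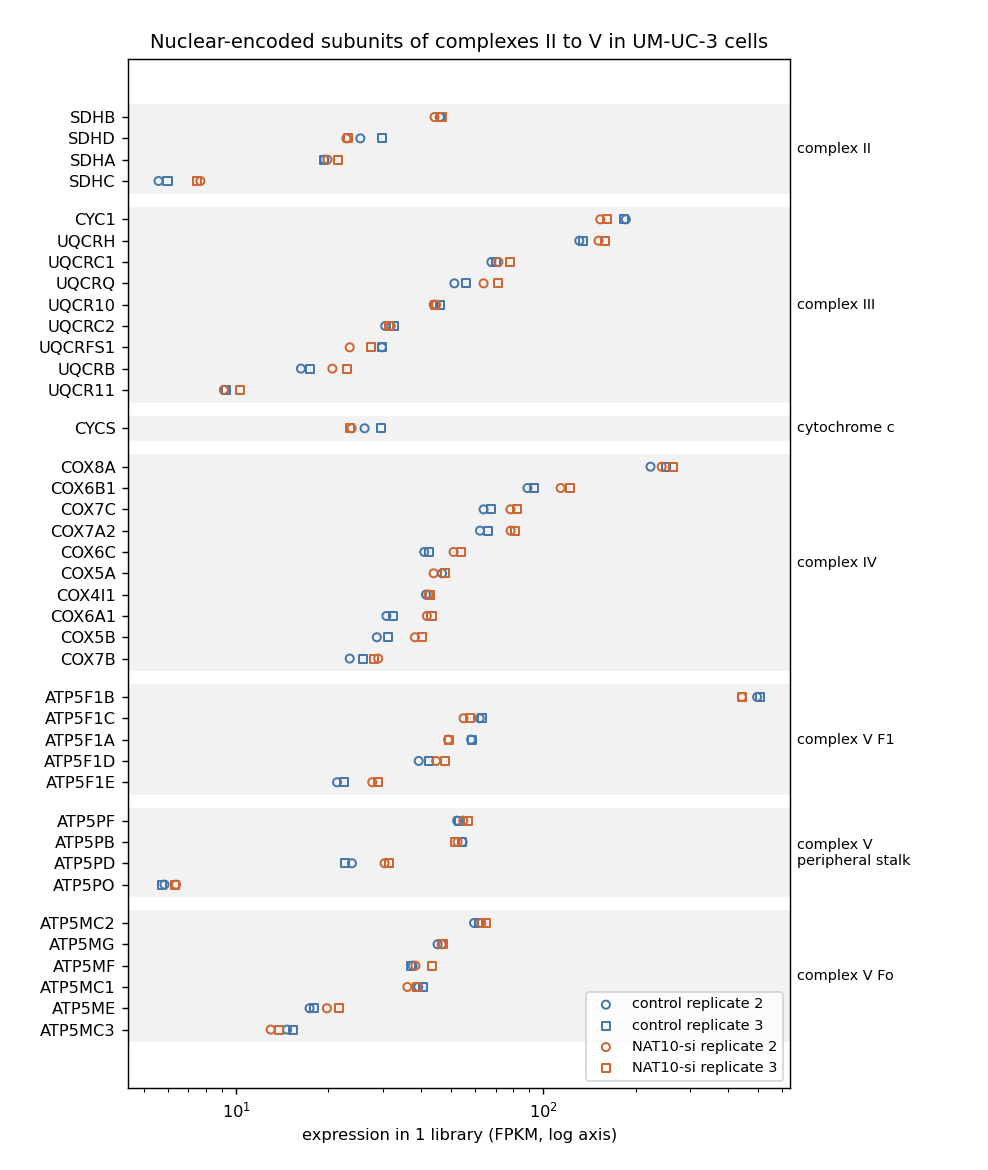
Expression of the 39 members in each of the 4 UM-UC-3 libraries (x axis, FPKM, log scale), grouped by complex and ordered by mean level within it. Blue marks are control and orange marks NAT10-si, with circles for replicate 2 and squares for replicate 3. Levels run from 6.08 FPKM on average for ATP5PO to 474 FPKM for ATP5F1B, and the marks of the arms lie close together.

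The levels are per length of the authors' gene model, so they depend on how much sequence the model counts. In complex V, ATP5F1B was 8.80 times as high as ATP5F1A, its partner in the catalytic hexamer, in mean FPKM, but had only 1.86 times as many recovered reads, because the gene model of ATP5F1A spans 10908 bases and that of ATP5F1B 2322. SDHC has the longest model among the members, at 14160 bases. A long model lowers the FPKM, and a low FPKM shrinks the log2(FPKM + 1) change: that of SDHC was 0.34, against 0.39 by limma-voom on recovered reads.

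In complex II, 1 of the 4 subunits rose and 1 fell, both of them membrane anchors. Across all genes tested, 27.9% rose and 27.9% fell. SDHC, which with SDHD holds the ubiquinone site, stood at 5.59 and 5.98 FPKM in control and at 7.66 and 7.47 FPKM in NAT10-si. The arms did not overlap, as for 80.4% of all genes tested, and the log2 change was 0.34 ± 0.06 (1.31-fold, limma adjusted p = 0.00616). SDHD, the other anchor, stood at 25.4 and 29.8 FPKM in control and 22.9 and 23.2 FPKM in NAT10-si. Its libraries did not overlap either, but control replicate 3 lay well above control replicate 2, and the change of -0.25 ± 0.08 had a limma adjusted p of 0.0473. That call was lost without control replicate 3 (limma adjusted p = 0.132), without NAT10-si replicate 2 (0.134) and without NAT10-si replicate 3 (0.117). SDHA, the flavoprotein that oxidises succinate, read 19.4, 19.3, 19.9 and 21.5 FPKM in control replicates 2 and 3 and NAT10-si replicates 2 and 3, and did not pass (log2 change 0.09 ± 0.05, limma adjusted p = 0.216). Its annotated pseudogenes summed to 85.3% of its own level, the largest being SDHAP4 at 9.32 FPKM, so its reads may be shared with near-identical copies. SDHB did not pass and its arms overlapped.

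In complex III, 3 small accessory subunits rose and the electron-carrying subunit cytochrome c1 fell, among 9. These counts stand beside 27.9% called higher and 27.9% called lower among all genes tested. UQCRB, a small subunit also called the ubiquinone-binding protein, stood at 16.3 and 17.5 FPKM in control and 20.6 and 23.0 FPKM in NAT10-si, a log2 change of 0.35 ± 0.07 (1.29-fold; limma adjusted p = 0.00983). It overlaps the antisense gene UQCRB-AS1, which averaged 193 FPKM, and without a stated strand setting the reads of both genes cannot be told apart. UQCRQ, another small subunit, stood at 51.4 and 56.2 FPKM against 64.0 and 71.5 FPKM (log2 change 0.33 ± 0.07, limma adjusted p = 0.0139). UQCRH, the hinge protein between cytochrome c1 and cytochrome c, stood at 131 and 135 FPKM against 152 and 159 FPKM (0.22 ± 0.04, limma adjusted p = 0.00911). For each of the 3, both NAT10-si libraries were above both control libraries, as for 40.4% of all genes tested. CYC1, cytochrome c1, was at 186 and 183 FPKM in control and 154 and 162 FPKM in NAT10-si. Both NAT10-si libraries lay below both control libraries, as for 40.1% of all genes tested. The log2 change of CYC1 was -0.23 ± 0.04 (0.855-fold, limma adjusted p = 0.00824).

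CYCS, the mobile carrier that takes electrons from CYC1 to complex IV, moved the same way as CYC1. It stood at 26.2 and 29.6 FPKM in control and 23.8 and 23.5 FPKM in NAT10-si. The log2 change was -0.23 ± 0.07 (limma adjusted p = 0.0333). Its arms did not overlap, as for 80.4% of all genes tested. The 42 pseudogene rows of CYCS summed to 29.6% of its level. The CYCS call was lost without control replicate 3 (limma adjusted p = 0.112), NAT10-si replicate 2 (0.0874) or NAT10-si replicate 3 (0.108). Without control replicate 2, the calls of UQCRB (limma adjusted p = 0.0565), UQCRH (0.0657), UQCRQ (0.0742) and CYC1 (0.0602) were lost. UQCRFS1, the Rieske iron-sulphur protein, stood at 29.86 and 29.98 FPKM against 23.5 and 27.5 FPKM and just missed the threshold (-0.23 ± 0.08, limma adjusted p = 0.0558). It passed when NAT10-si replicate 3 was left out (limma adjusted p = 0.0113). The core proteins UQCRC1 and UQCRC2 and the small subunits UQCR10 and UQCR11 did not pass, with log2 changes between -0.01 and 0.11.

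Complex IV had the most members called in 1 direction, with 7 of 10 higher and none lower. The shares over all genes tested were 27.9% higher and 27.9% lower, with no test of the difference. COX6A1, the ubiquitous form of subunit VIa, stood at 30.9 and 32.5 FPKM in control and 41.8 and 43.3 FPKM in NAT10-si. The gap between the arms was several times the gap within either, and the log2 change of 0.42 ± 0.05 was the largest among the 39 members (1.34-fold; limma adjusted p = 0.00149). COX6B1, which sits at the interface of the complex IV dimer, stood at 88.9 and 93.7 FPKM against 114 and 122 FPKM (0.37 ± 0.05, limma adjusted p = 0.00306). COX6C stood at 41.0 and 42.5 FPKM against 51.1 and 54.2 FPKM (0.33 ± 0.05, limma adjusted p = 0.00355). COX5B, a zinc-binding subunit on the matrix side, stood at 28.8 and 31.3 FPKM against 38.3 and 40.3 FPKM (0.38 ± 0.06, limma adjusted p = 0.00414). Both NAT10-si libraries lay above both control libraries for each of these subunits, as for 40.4% of all genes tested. COX7A2, the ubiquitous form of subunit VIIa, stood at 62.3 and 66.4 FPKM against 78.4 and 81.3 FPKM (0.31 ± 0.05, limma adjusted p = 0.00443), again with no overlap.

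COX7C (log2 change 0.28, limma adjusted p = 0.00664) and COX7B (0.20, limma adjusted p = 0.0392) also rose. COX7B lost its call without control replicate 2 (limma adjusted p = 0.147), NAT10-si replicate 2 (0.137) or NAT10-si replicate 3 (0.0820), and when the libraries were rescaled without mitochondrially encoded genes (0.0546). The other 6 kept theirs in all 12 alternatives run. The 3 that did not pass were COX4I1, the largest nuclear subunit, COX5A and COX8A, at log2 changes of 0.01, -0.05 and 0.10, and the arms overlapped for each. COX8A was the most abundant subunit per length, at 224 and 251 FPKM in control and 243 and 264 FPKM in NAT10-si. The sum over the 10 subunits was 652 and 702 FPKM in control and 761 and 806 FPKM in NAT10-si, a ratio of 1.16 between arm means. The median change in complex IV was 0.29 on the log2 scale. Pseudogenes of COX5B and COX6A1 summed to 9.14% and 9.03% of their members' levels.

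Complex V changed in parts. Of its 15 subunits, 4 rose, 3 fell and 8 did not pass, with a median log2 change of 0.07. Over all genes tested, 27.9% rose, 27.9% fell and 55.8% passed in either direction. All 5 subunits of F1, the soluble catalytic head, passed, with the 3 large ones lower and the 2 small ones of the central stalk higher. ATP5F1A, the alpha subunit, stood at 58.3 and 58.7 FPKM in control and 49.1 and 49.4 FPKM in NAT10-si. Its replicates almost coincided, and the log2 change was -0.24 ± 0.04 (0.841-fold; limma adjusted p = 0.00410). ATP5F1B, the beta subunit that binds and converts the nucleotides, stood at 498 and 510 FPKM against 444 and 445 FPKM (-0.18 ± 0.04, limma adjusted p = 0.00946). ATP5F1C, the gamma subunit that forms the rotating shaft, stood at 62.2 and 63.1 FPKM against 55.1 and 57.9 FPKM (-0.15 ± 0.04, limma adjusted p = 0.0369). In the other direction, ATP5F1E, the epsilon subunit, stood at 21.3 and 22.5 FPKM against 27.8 and 29.0 FPKM (0.36 ± 0.05, limma adjusted p = 0.00297). ATP5F1D, the delta subunit, stood at 39.4 and 42.4 FPKM against 44.8 and 47.8 FPKM (0.18 ± 0.06, limma adjusted p = 0.0474). The arms did not overlap for any of the 5, as was the case for 80.4% of all genes tested.

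Summed over F1, the level was 679 and 697 FPKM in control and 621 and 629 FPKM in NAT10-si, a ratio of 0.909, most of it ATP5F1B. The count of 3 lower F1 subunits fell to 1, ATP5F1A, without control replicate 2 or without control replicate 3. ATP5F1B then had limma adjusted p values of 0.0685 and 0.103, and ATP5F1C of 0.109 and 0.146. ATP5F1C also lost its call without NAT10-si replicate 2 (0.139), and ATP5F1D lost its call without any 1 of the 4 libraries (0.0523 to 0.199). ATP5F1A and ATP5F1E kept theirs in all 12 alternatives. ATP5F1E shares sequence span with the annotated read-through SLMO2-ATP5E and with TUBB1, and ATP5F1B with BAZ2A.

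In the peripheral stalk, which holds the head still against the rotor, 1 of 4 subunits rose, beside 27.9% of all genes tested. ATP5PD, subunit d, stood at 23.9 and 22.7 FPKM in control and 30.5 and 31.6 FPKM in NAT10-si, a log2 change of 0.40 ± 0.05 (1.33-fold; limma adjusted p = 0.00183). ATP5PO, the oligomycin sensitivity protein that joins stalk and head, stood at 5.85 and 5.74 FPKM against 6.38 and 6.34 FPKM, short of the threshold (0.11 ± 0.05, limma adjusted p = 0.121). ATP5PF, coupling factor 6, stood at 52.5 and 53.1 FPKM against 54.97 and 56.99 FPKM, also short of it (0.08 ± 0.04, limma adjusted p = 0.140). The arms did not overlap for these 3, nor for ATP5PB, subunit b, which was lower by less than 0.1 and did not pass. Over all genes tested, the arms did not overlap for 80.4%. ATP5PD overlaps KCTD2 in the annotation.

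In Fo, the membrane sector, 1 of 6 nuclear subunits rose, beside 27.9% of all genes tested. ATP5ME, subunit e, stood at 17.4 and 17.9 FPKM in control and 19.8 and 21.7 FPKM in NAT10-si, a log2 change of 0.22 ± 0.06 (limma adjusted p = 0.0270). It lost its call without control replicate 2 (limma adjusted p = 0.118), control replicate 3 (0.0741) or NAT10-si replicate 3 (0.103). The rotor's c subunit is encoded by 3 genes that make the same mature protein, and none of them passed. ATP5MC1 and ATP5MC3 were lower, with both NAT10-si libraries below both control libraries, and ATP5MC2 higher, at log2 changes of -0.09, -0.15 and 0.07. Such a position below both control libraries was found for 40.1% of all genes tested. ATP5MC3 came nearest, at 14.7 and 15.3 FPKM against 12.97 and 13.77 FPKM (limma adjusted p = 0.0583). ATP5MF, subunit f, stood at 37.6 and 37.2 FPKM against 38.4 and 43.5 FPKM (0.12 ± 0.07, limma adjusted p = 0.167), and was called higher only without NAT10-si replicate 2 (0.0326). ATP5MG, subunit g, did not pass and its arms overlapped.

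**Figure D2:**
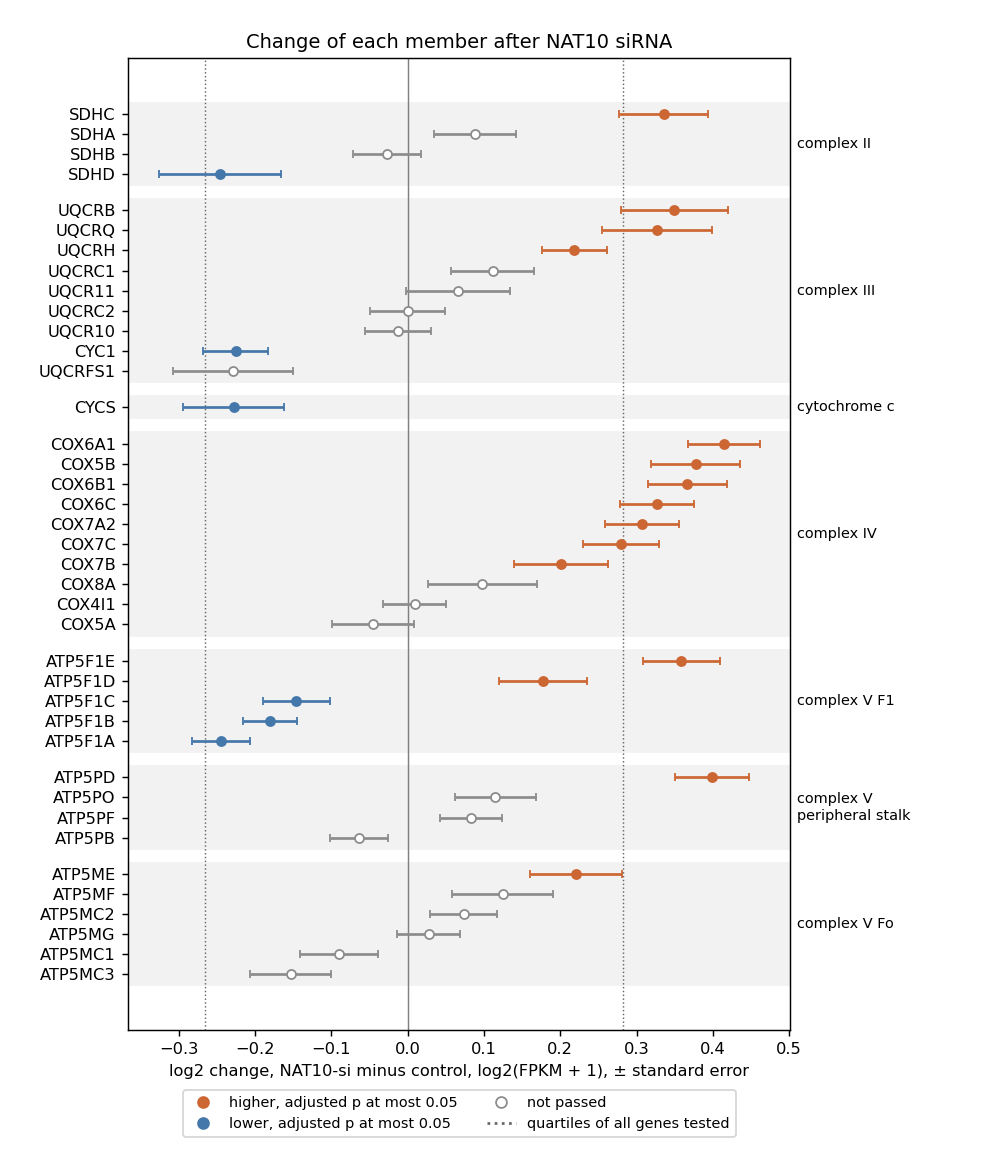
Log2 change of each member, NAT10-si minus control, on the log2(FPKM + 1) scale with its standard error (2 libraries per arm), ordered within each complex. Orange is higher and blue lower at a limma adjusted p of at most 0.05, open grey did not pass, and dotted lines are the quartiles of all 14004 genes (-0.26 and 0.28). In complex IV 7 of 10 points are orange, and in F1 the points divide into 3 blue and 2 orange. Over all genes tested, 27.9% were higher and 27.9% lower at that threshold.

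The other nuclear subunits and isoforms listed for complexes III to V were higher wherever they passed. Of the 11 listed, which include the inhibitor ATP5IF1, 6 were expressed enough to test, and 5 rose with none lower. These counts, and those of complex I below, stand beside 27.9% called higher and 27.9% called lower among all genes tested. NDUFA4, which copurifies with complex IV, went from 15.7 and 18.0 FPKM to 23.1 and 27.4 FPKM (log2 change 0.55, limma adjusted p = 0.00762). ATP5IF1, the inhibitor that blocks reverse rotation of ATP synthase, went from 18.9 and 18.2 FPKM to 24.3 and 27.0 FPKM (0.44, limma adjusted p = 0.00332). ATP5MK, a small Fo subunit, changed by 0.34 (limma adjusted p = 0.00366) and COX7A2L, which links complexes III and IV, by 0.29 (limma adjusted p = 0.00485). Tissue-specific forms such as COX4I2 and COX6A2 were listed at 0. Of 37 nuclear subunits of complex I, 35 were tested, 13 rose and 3 fell, with a median of 0.14. NDUFA3 (0.45), NDUFB8 (0.49), NDUFS1 (-0.32) and NDUFA12 (0.31) had the smallest limma adjusted p values, of 0.00256, 0.00323, 0.00487 and 0.00522.

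Of the 6 mitochondrially encoded partners of the same complexes, 5 fell and none rose, with a median log2 change of -0.45. Among all genes tested, 27.9% were called lower and 27.9% higher. MT-CYB, the cytochrome b of complex III, went from 4257 and 4285 FPKM to 2650.0 and 2666 FPKM (-0.68, limma adjusted p = 2.2e-04). MT-CO2 and MT-CO3, core subunits of complex IV, changed by -0.56 and -0.45 (limma adjusted p = 4.3e-04 and 8.5e-04), and MT-ATP8, of Fo, by -0.44 (limma adjusted p = 0.00118). MT-CO1, the catalytic subunit of complex IV, changed by -0.03 and did not pass. In complex IV, 7 nuclear subunits were called higher while 2 of 3 mitochondrial ones were called lower in the same libraries. MT-RNR1 and MT-RNR2, from the same mitochondrial genome, were higher in NAT10-si, as given above. When the libraries were rescaled without mitochondrially encoded genes, 14 members were higher and 8 lower. MT-CYB (limma adjusted p = 0.0543), MT-CO2 (0.186) and MT-CO3 (0.252) no longer passed when genes of any level were tested.

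Assembly factors, which build the complexes but are not part of them, included calls in both directions. Their counts stand beside 27.9% called higher and 27.9% called lower among all genes tested. For complex II, 2 of 4 rose, SDHAF4 (log2 change 0.54) and SDHAF3 (0.37). For complex III, 4 of 9 rose and 4 fell. UQCC1 went from 13.2 and 13.8 FPKM to 20.4 and 20.7 FPKM (0.57, limma adjusted p = 6.6e-04), UQCC6 changed by 0.34, and BCS1L, which inserts the Rieske protein, went from 8.75 and 8.80 FPKM to 6.13 and 5.63 FPKM (-0.51, limma adjusted p = 0.00169). UQCC4 changed by -0.47. For complex IV, 4 of the 21 tested rose and 4 fell. COA7 went from 12.4 and 13.4 FPKM to 5.78 and 5.53 FPKM (-1.06, limma adjusted p = 2.5e-04), COX20, which helps mature MT-CO2, changed by 0.49, SCO1, a copper chaperone, by -0.45 and COX10, of heme A synthesis, by 0.36. For complex V, TMEM70 (-0.53) and ATPAF1 (-0.37) fell and TMEM242 (0.47) rose among the 4 tested. HCCS, which attaches heme to cytochrome c and c1, went from 14.3 and 16.4 FPKM to 11.5 and 10.6 FPKM (-0.44, limma adjusted p = 0.00730).

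Regulators of respiratory gene transcription were lower or did not pass. Of 12 tested, 7 fell and none rose, with a median log2 change of -0.25, beside 27.9% called lower and 27.9% higher among all genes tested. TFAM, which packages and transcribes mitochondrial DNA, went from 13.3 and 14.3 FPKM to 6.913 and 7.003 FPKM (-0.89, limma adjusted p = 3.5e-04). PPRC1, a coactivator, went from 27.65 and 24.98 FPKM to 16.8 and 15.5 FPKM (-0.67, limma adjusted p = 0.00111). NRF1, whose motif letters are shown above, went from 5.12 and 4.99 FPKM to 3.238 and 2.996 FPKM (-0.56, limma adjusted p = 0.00168), and TFB2M changed by -0.36 (limma adjusted p = 0.00504). YY1, another regulator of these genes, changed by -0.23 (limma adjusted p = 0.0134). The ETS factor GABPA (0.09, limma adjusted p = 0.191) and its partner GABPB1 (-0.27, limma adjusted p = 0.0521) did not pass. The 4 libraries of these genes are the same as those of the members, so the lists are not independent of each other.

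**Figure D3:**
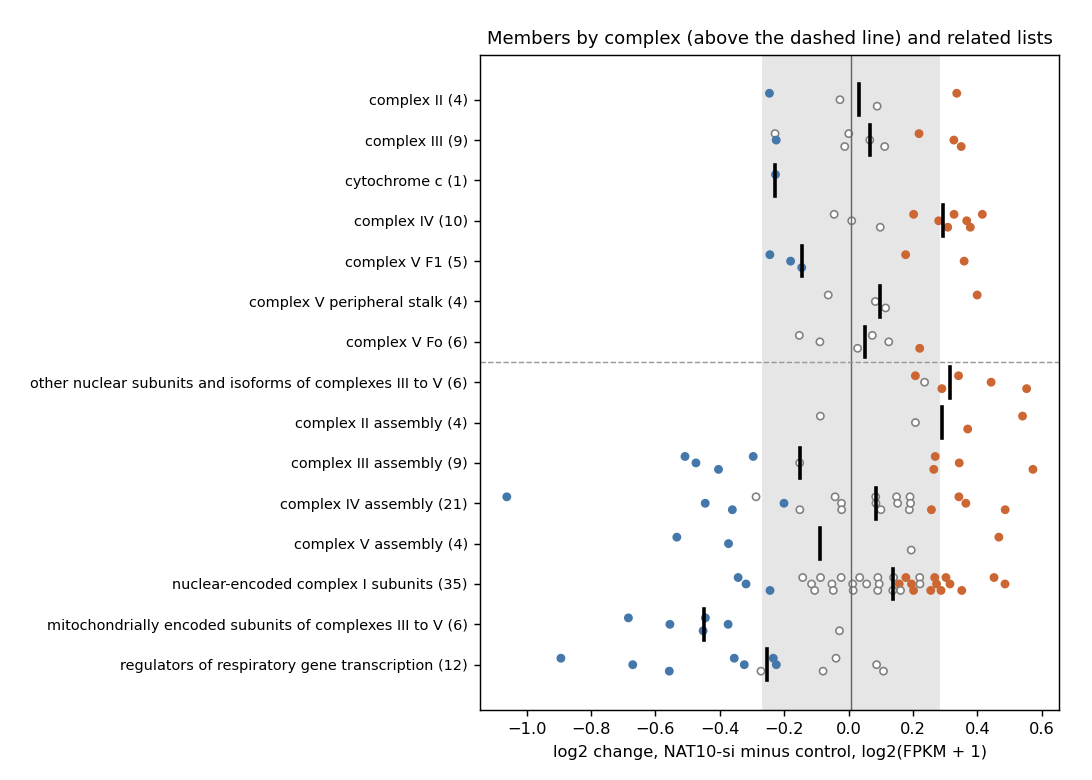
Log2 change (NAT10-si minus control, log2(FPKM + 1) scale) of each tested gene, by complex for the members (above the dashed line) and by related list, with the number of genes in parentheses. Orange points were higher and blue points lower at a limma adjusted p of at most 0.05, black bars are medians, and the grey band spans the quartiles of all 14004 genes. Complex IV has a median of 0.29, the mitochondrially encoded subunits -0.45 and the regulators -0.25.

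Change varied with the length of the gene model, over all genes as well as over members. Genes under 1 kb had a median log2 change of 0.12 over 2294 genes, those of 1 to 2 kb 0.07, those of 2 to 4 kb 0.01 and those over 4 kb -0.03. The members in the same classes had medians of 0.10 (5 members), 0.28 (9), 0.07 (16) and 0.01 (9). Across 14000 genes the Spearman correlation of length with log2 change was -0.12, and across the 39 members -0.19, in both cases a description across genes of the same 4 libraries. The part of length in the members' changes was not tested.

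The acRIP lists differed in size between rounds far more than between arms. The first-round lists held 685 peaks for control and 666 for NAT10-si, and the replicate-round lists 10253 and 16753. With 1 list per arm and round there is no test between arms. In the first round, 1 member had a peak in the control list, ATP5MG, beside 3.03% of tested genes and 3.85% of those at or above the level of the lowest member, and 1 in the NAT10-si list, UQCRC2, beside 3.48% and 4.87%. In the replicate round, 38 of 39 members had a peak in the control list, beside 49.6% of all tested genes and 65.0% of those at or above that level. All 39 had one in the NAT10-si list, beside 64.5% and 77.7%. The exception in the control list was SDHD, whose single NAT10-si peak lay at chr11:112095456-112095665 with the authors' fold over input of 6.14. These counts were the same for peaks at a false discovery rate of at most 0.05, for peaks of at least 2-fold and for lists of equal length.

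ATP5MG, the Fo subunit g, was the member with a peak in both control lists. Its first-round control peak, on the plus strand at chr11:118401633-118403977, covered 150 bases in 2 blocks and had a fold of 5.28. Neither replicate-round control peak lay there: they were at chr11:118407023-118407202 (9.33-fold) and chr11:118409037-118409247 (9.46-fold). UQCRC2, a core protein of complex III, had its first-round NAT10-si peak at chr16:21972077-21976250 (40.8-fold) and its replicate-round control peak elsewhere, at chr16:21983270-21983390 (3.76-fold). Neither of these first-round peaks shared a base with a replicate-round peak of the same arm. The first-round control peak of ATP5MG did share 120 of its 150 bases with a replicate-round peak of the other arm, the NAT10-si peak at chr11:118401663-118406185 (8.62-fold). Coordinates are as the lists give them, counted from 1. The submitters' processing notes name hg19, but 135 of the 136 member peaks overlapped the gene's RefSeq span in GRCh38.p14. The folds are the authors' own, and folds of different lists are not comparable.

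Between the arms of the replicate round, member peaks lay mostly in the same places. Of 57 control peaks in members, 52 overlapped a NAT10-si peak by at least 1 base, a share of 91.2%, beside 73.88% of all control peaks. From the other side, 52 of 77 NAT10-si peaks overlapped a control peak, a share of 67.5%, beside 44.02%. With a reciprocal overlap of at least 50%, 46 did. At least 1 shared position was present in 36 members, the exceptions being SDHD, SDHC and CYCS, of which SDHC and CYCS had 1 peak per arm at different positions. The NAT10-si list, which was the longer, held more peaks than the control list in 16 members and as many in 21. It held fewer in 2, COX7C and ATP5ME, each with 1 control peak that missed a false discovery rate of 0.05. UQCRB had 1 control peak and 5 NAT10-si peaks, and COX4I1 had 4 and 5. In each of these 2 genes, 1 NAT10-si peak missed that rate. The counts take every listed peak and so depend on that limit.

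Member peaks were long and often spliced. In the control replicate list they covered a median of 265 bases, beside 181 over all peaks, and 45.6% had more than 1 block, beside 15.5%. In the NAT10-si list the medians were 300 and 210 bases and the shares 49.4% and 21.7%. The median fold was 42.1 for member peaks and 24.1 for all peaks in the control list, and 14.0 for both in the NAT10-si list. COX6B1, the most enriched member in both lists, had the same peak in each, in 3 blocks over 469 bases on the plus strand at chr19:35651250-35658861. Its fold was 1530.0 in the control list, at percentile 100 of that list, and 227 in the NAT10-si list, at percentile 99.1. ATP5PB and ATP5MC1 followed in the control list, each with a highest fold of 313. The part of expression level in these shares was not tested beyond the comparison with genes at or above the lowest member.

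**Figure D4:**
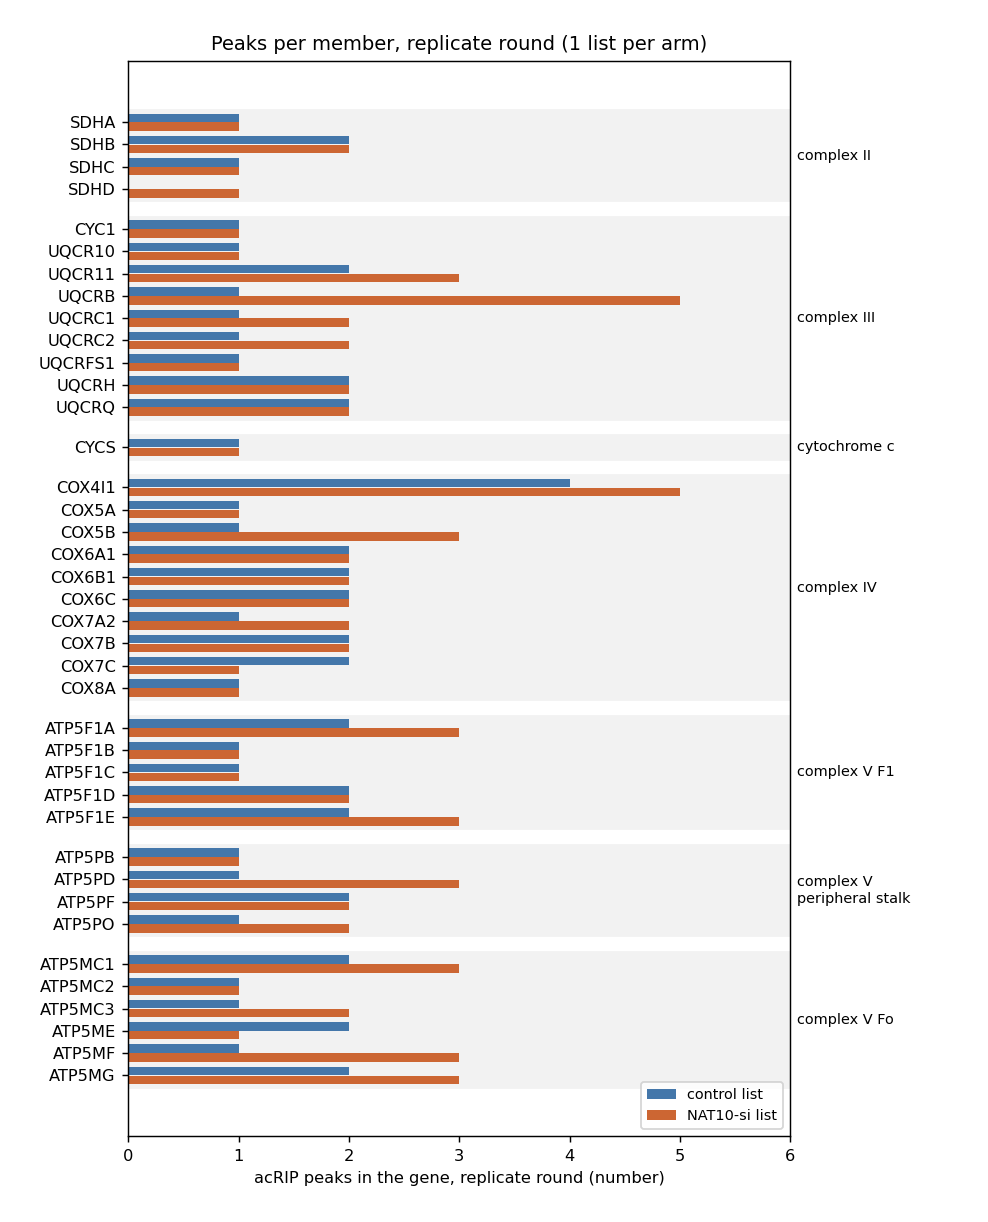
Number of acRIP peaks in each member (x axis) in the 2 lists of the replicate round, control in blue and NAT10-si in orange, grouped by complex. Every listed peak is counted, at any false discovery rate. All members have a bar in both arms except SDHD, which has none in control. UQCRB shows the widest difference, with 1 control peak and 5 NAT10-si peaks.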

How the data were processed

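RNA was sequenced from UM-UC-3 cells 48 h after transfection, with 2 libraries per arm. Per the submitters' processing notes, bcl2fastq 2.19.1, HISAT2 2.1.0 and HTSeq 0.6.1 were used with the build hg19. The peak caller and strand setting are not given in the sources used here. The deposited table gave 1 value per gene and library under a header that names no unit. The values were read as FPKM made by the authors, since their steps equal 1 read divided by gene length and library size. Whole reads were recovered from these steps for 27567 of 27571 genes above 0 in at least 2 libraries and for all 39 members. The totals were 35925394 and 19216128 in control and 18207010 and 17373367 in NAT10-si. The peak lists hold, per the file headers, the authors' fold enrichment of precipitate over input (a ratio), a p-value, and its log10 and that of the false discovery rate (each taken as a score).

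limma 3.58.1 (R 4.3.3, trend) was fitted to log2(FPKM + 1) over the 14004 genes averaging 1 FPKM or more, and p was adjusted over all of them by Benjamini-Hochberg (threshold 0.05). Fold changes on this scale understate the change of low genes. The method was tested on simulated data with larger changes than any member showed, so changes as small as theirs were not simulated. The members, related lists and motifs were chosen with earlier results of these data known. Values per library are given for the 3 members of each complex with the smallest adjusted p, for those past the threshold with a log2 change of at least 0.3, and for others where a result turns on them, and up to 4 genes by adjusted p are named from each related list. A few more, such as MT-CO1, GABPA, GABPB1, YY1 and KRT19, were named after their values were seen. Peaks overlapped if they shared 1 base on the same strand. Alternatives were a pseudocount of 0.1 FPKM, no filter, a mean of at least 5 FPKM, limma-voom on recovered reads, 3 other scalings, a replicate block and leaving out each library. No replicate effect shared between the arms was seen, with a correlation across genes of 0.01 between their replicate differences. Whether libraries of the same number were prepared together is not in the labels. Promoter sequences are RefSeq's, and no genome was used, so peak sequences are not shown.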

Additional observations from a re-analysis of the deposited data

How the results depend on the processing

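The count of members called higher, 15, stayed within 1.5 times under the planned settings other than one, lying between 11 and 16 for other pseudocounts, filters, scalings and limma-voom, and between 9 and 14 without 1 library. The count called lower, 6, was 2 with no filter on low values, between 4 and 8 in the other settings with all libraries, and between 2 and 5 without 1 library. The 7 higher members of complex IV became 6 or 7. The 3 lower members of F1 became 1 with no filter and between 1 and 3 without 1 library. The median log2 change of members, 0.09, was between 0.0385 (without NAT10-si replicate 3) and 0.1431 (without NAT10-si replicate 2), and 0.07 to 0.10 otherwise. limma-voom on recovered reads called 16 higher and 8 lower. With a replicate block, 14 were higher and 5 lower, COX7B (limma adjusted p = 0.0669) and ATP5F1C (0.0536) no longer passing. The pairing is not given by the labels or shown by the data.

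Of 468 member values under the 12 alternatives, 10 turned direction, none of them for a member that had passed. Rescaling without mitochondrially encoded genes turned UQCRC2 to -0.0157 and COX4I1 to -0.0068, and quantile normalization turned UQCR10 to 0.0168. Without 1 library, the log2 change ranged from -0.0639 to 0.0097 for SDHB, from -0.046 to 0.0465 for UQCRC2, from -0.0449 to 0.0202 for UQCR10, from -0.0129 to 0.144 for UQCR11, from -0.0136 to 0.0324 for COX4I1, from -0.1059 to 0.0155 for COX5A and, among assembly factors, from -0.1953 to 0.0194 for SDHAF2. In all 12 alternatives 10 of the 21 calls were kept: SDHC, COX5B, COX6A1, COX6B1, COX6C, COX7A2, COX7C, ATP5F1A, ATP5F1E and ATP5PD. The causes were not tested. The number of members with a peak in each list did not change with the settings tried, while member peaks at a false discovery rate of at most 0.05 numbered 54 of 57 in the replicate-round control list and 71 of 77 in the replicate-round NAT10-si list. Requiring a reciprocal overlap of 50% left 46 of the 52 shared peaks. In depth, the thinnest member was ATP5ME, with 330 recovered reads in control replicate 3.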
